A study of Homo sapiens with 9 samples.

Results

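The genes described here are those of the proteasome, taken as every protein-coding gene of the deposited count table whose symbol is PSM followed by a letter from A to G and a number. The rule found 48 genes among 60656 in the table, 19954 of them protein-coding. They were followed in RIVA, an established line of diffuse large B-cell lymphoma of the activated B-cell-like kind (ABC-DLBCL), transduced with a pLVX-TetOne lentivirus and treated with doxycycline at 200 ng/mL for 24 h in all 3 groups. The virus carried no insert in the 3 vector libraries, BCL10 S136X, a truncation, in 3 libraries, and BCL10 R58Q, a missense mutant of the CARD domain, in 3 libraries. BCL10 is an adaptor protein that acts upstream of NF-kB, and the cells kept their own BCL10 gene in every group. The construct was therefore added to endogenous BCL10, and no construct carrying wild-type BCL10 was among these libraries. The paper calls the libraries biological replicates, while nothing in the labels says whether they came from separate transductions, so that the p-values measure the spread between these libraries.

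The proteasome is the large protease that degrades ubiquitin-tagged proteins. Its 20S core is a barrel of alpha and beta rings, in which PSMB5, PSMB6 and PSMB7 carry the proteolytic sites, and it is capped by the 19S regulatory particle, whose PSMC ATPases unfold the substrate and whose PSMD subunits bind and deubiquitinate it, or by activators such as PA28. Under interferon the catalytic subunits are replaced by PSMB8, PSMB9 and PSMB10, which turns the core into the immunoproteasome, a form that lymphoid cells carry constitutively and that favours peptides suited to MHC class I. NF-kB activation itself uses the proteasome, which degrades the inhibitor IkB-alpha, encoded by NFKBIA.

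Total counts were between 28047713 and 33122267 per library (median 32185418). BCL10, which sets the mutant libraries apart from vector but does not tell S136X from R58Q, had 885, 1268 and 936 counts in the vector libraries, 14293, 13210 and 9838 in the S136X libraries and 10596, 10131 and 10117 in the R58Q libraries. The cells carried the B-cell markers, with 6 of 6 at 46.9 to 1190 CPM (read counts scaled by library size), and 4 of 5 ABC-DLBCL markers, CCND2 being at 1 count at most. The defining T-cell markers CD3D, CD3E, CD3G and CD2 and all 6 myeloid markers stayed at 0.372 CPM or lower, TRAC was at 1.13 to 12.3 CPM, and of 6 stromal, epithelial and endothelial markers EPCAM was the highest at 32.9 to 53.6 CPM. The deposited column names carry 2 dates, with all vector and S136X libraries under the earlier date and all R58Q libraries under the later one, so that R58Q and date cannot be told apart.

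Proteasome genes were higher in both mutants than in vector, most of them by a small step. The 48 genes together took 0.585%, 0.546% and 0.560% of all counts in the vector libraries, 0.641%, 0.642% and 0.661% in the S136X libraries, and 0.678%, 0.685% and 0.677% in the R58Q libraries. The 3 groups did not overlap in this share, which amounts to scaling each library by its total count. In bulk RNA, more RNA per cell and more cells with high RNA cannot be told apart. Of the 48 genes, 46 passed the filter on low counts and were tested. PSMA8, the alpha subunit of the testis, had 1, 0 and 0 counts in the vector libraries, 0 in each S136X library and 0, 2 and 1 in the R58Q libraries. PSMB11, the beta subunit of the thymic cortex, had 2 counts in a single vector library and 0 in the other 8 libraries.

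With S136X, 45 of the 46 tested genes were fitted higher than in vector, beside 46.9% of all 15530 genes tested. The median log2 fold change of the 46 genes was 0.26 (a median fold of 1.20), against -0.02 for all genes. At an adjusted p under 0.05 (edgeR quasi-likelihood test, Benjamini-Hochberg over all genes tested), 21 of 46 rose, beside 6.03% of all genes, and 0 fell, beside 4.10%. No proteasome gene was lower at an unadjusted p under 0.05 either. DESeq2 called 28 higher, beside 1231 of all 15530 genes, and limma-voom 21, beside 890. Both called 0 lower, beside 834 and 622 of all genes. In 37 of the 46 genes all 3 S136X libraries lay above all 3 vector libraries, beside 16.0% of all genes. A rise of at least 1.5-fold was called for 1 of the 46 genes, PSMA6, a share near the 2.05% of all genes. In a second fit, blocked by replicate number, 38 proteasome genes passed, beside 12.9% of all genes.

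The count in S136X was not stable when a library was left out, which also leaves fewer libraries to test. It was 3 without vector replicate 2, and 11 without vector replicate 3 or without S136X replicate 3, in fits on 5 libraries. The counts over all genes in these fits are not given here, so a general loss of calls was not set apart. Under upper-quartile scaling 16 proteasome genes passed, beside 734 of 15530 genes that were higher, and under total counts 15, beside 690. PSMG3, PSMG4 and PSME4 were then fitted below vector. These scalings moved the share of higher genes among all called genes from 59.5% to 47.4% and 42.6%, while the distance between the median of the proteasome genes and that of all genes stayed at 0.28 on the log2 scale under each of them.

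With R58Q, all 46 tested genes were fitted higher than in vector, beside 46.4% of 15435 genes. The median log2 fold change was 0.34 (a median fold of 1.27), against -0.03 for all genes. At an adjusted p under 0.05, 37 of 46 rose, beside 12.3% of all genes, and 0 fell, beside 8.76%. The count of lower genes at an unadjusted p under 0.05 was also 0. DESeq2 called 38 higher, beside 2073 of all 15435 genes, and limma-voom 37, beside 1864. Both called 0 lower, beside 1398 and 1352 of all genes. The 3 R58Q libraries lay above the 3 vector libraries in 42 of the 46 genes, beside 21.0% of all genes. PSMA6 and PSMB9 were the 2 of 46 genes called at 1.5-fold or more, a share near the 4.09% of all genes. The count at any fold was 20 without vector replicate 2 and 23 without vector replicate 3. The counts over all genes in those fits are not given here. In the blocked fit the count of proteasome genes was 42, beside 18.2% of all genes. It was 27 under upper-quartile scaling, beside 1352 of 15435 genes, and 28 under total counts, beside 1416. Under these scalings the share of higher genes among all called genes went from 58.3% to 40.3% and 43.1%. PSME4 alone was then fitted below vector, and the distance between both medians stayed at 0.37.

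How many proteasome genes differed between the mutants depended on the fit, with 1 higher in R58Q without the replicate block and 15 with it. In R58Q against S136X, 38 of 46 were fitted higher, beside 50.7% of 15195 genes, with a median log2 difference of 0.08. A single gene, PSMA6, passed at any fold, beside 0.349% of all genes, and it also passed at 1.5-fold, beside 0.270%. All 3 R58Q libraries were above all 3 S136X libraries in 15 genes, beside 8.76% of all genes, and below them in 2 genes, PSME3 and PSMF1, beside 8.42%. In the blocked fit 15 genes were higher, beside 7.84% of all genes. Both mutants were compared with the same 3 vector libraries, so that their values against vector are not independent of each other.

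**Figure D1:**
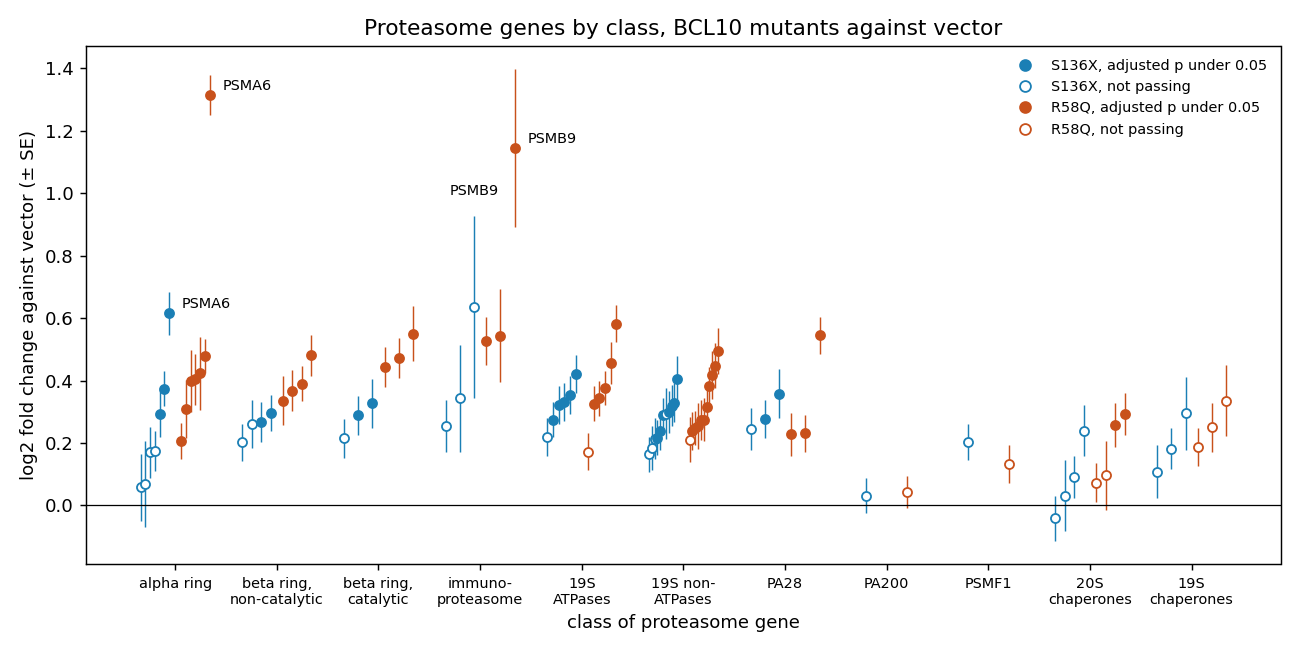
Log2 fold change against vector (vertical axis, with SE) of each tested proteasome gene, grouped by class along the horizontal axis, in S136X (blue) and R58Q (orange). Filled points passed an adjusted p of 0.05 (21 genes in S136X, 37 in R58Q). PSMA6 lies apart from the rest of the alpha ring at 0.61 and 1.31, and PSMB9 is the highest immunoproteasome gene at 0.63 and 1.14.

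The alpha ring forms the gate of the 20S core. Of its 7 genes 3 rose in S136X (median log2 fold change 0.17) and 7 in R58Q (median 0.40). For this and the class counts below, the shares of all genes that rose were 6.03% in S136X and 12.3% in R58Q. PSMA6 stood apart from the other alpha genes. It had 920, 869 and 856 counts in the vector libraries, 1154, 1297 and 1181 in the S136X libraries and 1981, 1882 and 2201 in the R58Q libraries. As CPM this was 26.4 ± 1.07 in vector, 40.4 ± 1.01 in S136X and 65.7 ± 2.43 in R58Q (mean ± SD, n = 3 each). The 3 groups did not overlap, with S136X between vector and R58Q. The log2 fold change was 0.61 (SE 0.0686, adjusted p = 0.00153) in S136X and 1.31 (SE 0.0637, adjusted p = 2.39e-05) in R58Q, folds of 1.53 and 2.49. R58Q exceeded S136X by 0.69 on the log2 scale (SE 0.0599, adjusted p = 0.0051). This last call was lost without S136X replicate 3, where the value was 0.72 and the adjusted p 0.0514.

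PSMA6 was also set against its own ring within each library. The log2 ratio of PSMA6 counts to the geometric mean of the 6 other alpha genes was -1.05, -1.05 and -1.07 in vector, -0.73, -0.57 and -0.59 in S136X and -0.16, -0.16 and -0.01 in R58Q. The 3 groups did not overlap in this ratio, which was lowest in vector and highest in R58Q. The ratio describes a difference between groups and not how PSMA6 compares with the ring in level, since PSMA1 and PSMA2 had 215 to 454 counts and the 4 other alpha genes 2741 to 7814, and counts are not corrected for length. The 6 other genes gave 2 rises in S136X (median 0.17) and 6 in R58Q (median 0.40). The highest of these 6 was PSMA5, at 0.37 in S136X and 0.48 in R58Q. The lowest by the mean of both values was PSMA4, although PSMA1 and PSMA2 were lower in S136X alone. PSMA4 had 210, 207 and 193 CPM in vector, 240, 230 and 218 in S136X and 235, 230 and 239 in R58Q. All of its mutant libraries were above its vector libraries, at log2 fold changes of 0.17 (SE 0.0635, adjusted p = 0.12) and 0.21 (SE 0.0584, adjusted p = 0.0398). In the blocked fit the S136X value of PSMA4 passed (0.17, adjusted p = 0.0186). Its R58Q call was lost without vector replicate 2 or 3 or any single R58Q library, under both other scalings and with protein-coding genes only, with an adjusted p of at most 0.133.

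PSMA6 lies on chromosome 14 (GRCh38, chr14:35278633-35317493, plus strand), next to NFKBIA, the NF-kB-induced inhibitor of NF-kB (chr14:35401513-35404749). The gap between them was 84.0 kb and held 0 other protein-coding genes and 2 genes of other types, which had at most 1 count. NFKBIA had 329, 288 and 297 CPM in vector, 638, 597 and 576 in S136X and 1404, 1016 and 1310 in R58Q. It followed the same order as PSMA6, without overlap between the groups, at log2 fold changes of 0.99 (SE 0.0735, adjusted p = 0.000236) and 2.03 (SE 0.123, adjusted p = 4.93e-05). R58Q exceeded S136X by 1.03 in NFKBIA (SE 0.115, adjusted p = 0.0138), a call that was lost without S136X replicate 2 or 3 or without R58Q replicate 3, where the adjusted p was between 0.0726 and 0.14.

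The other genes around PSMA6 did not all move with it. Within 500 kb of its midpoint lay 9 other protein-coding genes, of which 7 were tested. In each mutant 2 of the 7 rose, NFKBIA and BAZ1A, beside 6.03% of all genes in S136X and 12.3% in R58Q. BAZ1A, a chromatin remodelling subunit, was at 0.36 (adjusted p = 0.00991) in S136X and 0.52 (adjusted p = 0.000939) in R58Q. PRORP, which ends just before PSMA6 and encodes the catalytic subunit of mitochondrial RNase P, had log2 fold changes of -0.32 (SE 0.103, adjusted p = 0.0831) and -0.13 (SE 0.0981, adjusted p = 0.39). SRP54, FAM177A1, PPP2R3C and RALGAPA1 were between -0.09 and 0.20 in both comparisons and did not pass. INSM2 had 0 to 6 counts and AL121594.1, a gene that reads through PSMA6, had 0 to 7.

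**Figure D2:**
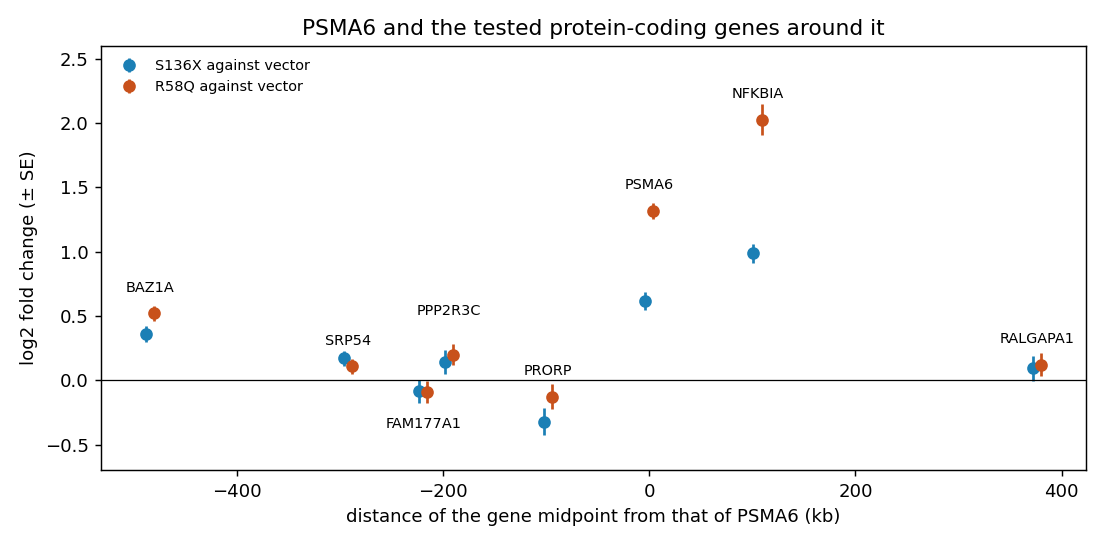
Log2 fold change against vector (vertical axis, with SE) of PSMA6 and the 7 tested protein-coding genes around it, by the distance of their midpoints from that of PSMA6 in kb, in S136X (blue) and R58Q (orange). PSMA6 (0.61 and 1.31) and NFKBIA (0.99 and 2.03) are the highest, BAZ1A follows at 0.36 and 0.52, and the 5 other genes did not pass.

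The sequence before the RefSeq start of PSMA6 is shown because this was the only proteasome gene called at 1.5-fold or more in all 3 comparisons. It covers the 250 bases upstream of the start (RefSeq, GRCh38.p14, chr14:35292067-35292316, plus strand), and matches to the motifs searched would be in capitals.
PSMA6: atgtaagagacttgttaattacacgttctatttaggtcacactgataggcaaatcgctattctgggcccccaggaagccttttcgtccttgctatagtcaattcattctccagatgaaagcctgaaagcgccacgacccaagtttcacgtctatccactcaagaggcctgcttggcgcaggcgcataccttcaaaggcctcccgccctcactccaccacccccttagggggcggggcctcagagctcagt
No capitals appear, since neither this window nor that of a second RefSeq start of PSMA6 holds a match to the NF-kB consensus, to the interferon-stimulated response element (ISRE, searched as GAAA, any 2 bases and GAAA again), to the gamma-activated sequence (GAS, TTCNNNGAA) or to the antioxidant response element (ARE, TGACNNNGC), on either strand. That says only that these letters are absent from this window. The NF-kB consensus was in 9.96% of 35114 RefSeq promoters of the same length and in 2 of 51 proteasome promoters, those of PSMA4 and PSMA8. The 51 promoters hold several starts of some proteasome genes and no start of others. The start lies inside the PSMA6 interval of the count table, which begins further upstream.

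The counts of PSMA6 also share sequence with other genes. Of the 31-base words of its longest coding transcript, 80.6% were also found in AL121594.1 on the same strand and 37.2% in 3 genes elsewhere. The share with an overlapping gene on the same strand was 51.6% for PSMA2 (AC010132.3, 0 to 3 counts), 47.7% for PSMA1 (AC018523.2, 0 counts), 41.5% for PSMB10 (AC040162.1, 126 to 227 counts), 39.0% for PSMD9 and 14.3% for PSMB9 (PSMB8-AS1, 141 to 297 counts). Per kb of annotated exon, PSMD9, PSMA2, PSMA1, PSMA6 and PSMB9 were the 1st, 2nd, 4th, 5th and 6th lowest of the 46 genes in vector, and PSMB10 the 16th. The highest was PSMA7 with 105 CPM per kb. Annotated exon is the union over all transcripts of a gene, at 6506 bases for PSMA6 and 3072 for PSMB9. Their longest coding transcripts have 1029 and 792 bases, so this order depends on the length used. How the counting treated reads that fit more than 1 gene is not given in the sources used here, and its part in the levels or changes of these 6 genes was not tested.

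**Figure D3:**
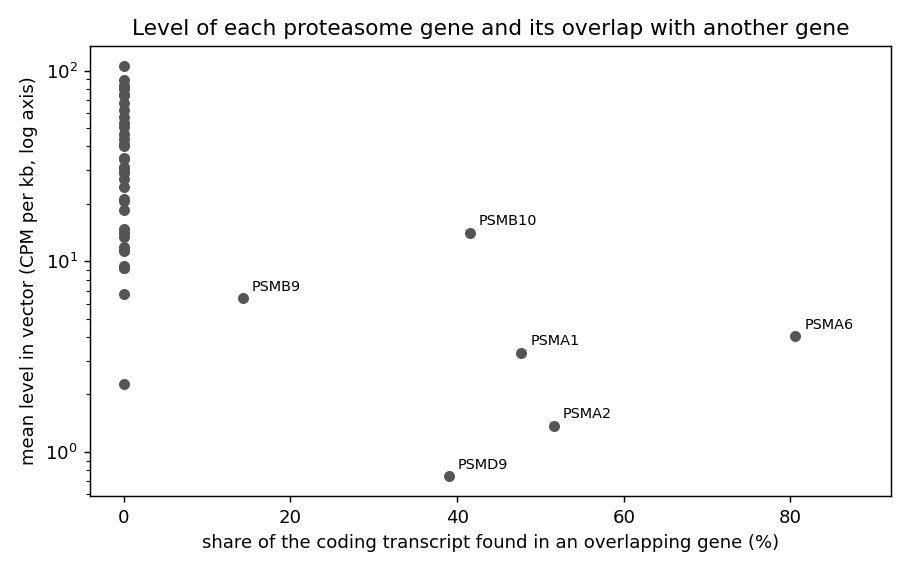
Mean level in vector (vertical log axis, CPM per kb of annotated exon) of each tested proteasome gene by the percentage of its coding transcript found in an overlapping gene on the same strand (horizontal axis). The 6 genes with a share above 0 include 5 of the 6 lowest levels, and PSMB10 is the 16th lowest. Annotated exon is the union over all transcripts, so this order depends on the length used.

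Of the alpha genes that share sequence, PSMA1 and PSMA2 were at 0.06 and 0.07 in S136X (adjusted p = 0.775 and 0.789) and at 0.40 and 0.42 in R58Q (adjusted p = 0.0246 and 0.0365). The direct comparison of the mutants did not pass for either gene, at 0.33 (adjusted p = 0.256) and 0.35 (adjusted p = 0.388), and passed in the blocked fit (adjusted p = 0.00526 and 0.0279). PSMC1, an ATPase of the 19S base, shares 75.8% of its exon bases with NRDE2 on the opposite strand, and whether counting used strand is not stated. The same holds for PSMD7, with 30.7% shared with AC009120.2, and PSMC5, with 19.5% shared with FTSJ3 (4036 to 4992 counts).

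The non-catalytic beta subunits are the structural part of the inner rings. Of the 4 genes 2 rose in S136X (median 0.26) and 4 in R58Q (median 0.38). The highest by the mean of both values was PSMB4. It had 172, 153 and 158 CPM in vector, 194, 188 and 199 in S136X and 233, 228 and 214 in R58Q. Its 3 groups did not overlap, at log2 fold changes of 0.27 (SE 0.0638, adjusted p = 0.0326) and 0.48 (SE 0.0660, adjusted p = 0.00248). The S136X call of PSMB4 was lost without vector replicate 2 or 3 or S136X replicate 1 or 3 and under both other scalings, with adjusted p between 0.0566 and 0.149. The lowest by that mean was PSMB3. It had 99.7, 91.1 and 93.3 CPM in vector, 105, 109 and 112 in S136X and 127, 127 and 114 in R58Q. It too was higher in every mutant library, at 0.20 (SE 0.06, adjusted p = 0.0674, and 0.0236 in the blocked fit) and 0.37 (SE 0.0665, adjusted p = 0.00769). In the blocked fit, R58Q also exceeded S136X in PSMB4 by 0.21 (adjusted p = 0.00312, and 0.191 without it) and in PSMB3 by 0.16 (adjusted p = 0.0359, and 0.418 without it).

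The catalytic subunits of the constitutive core were PSMB5, PSMB6 and PSMB7, the chymotrypsin-like, caspase-like and trypsin-like sites. PSMB5 had 68.3, 57.4 and 58.9 CPM in vector, 77.4, 73.7 and 80.5 in S136X and 99.4, 85.8 and 85.6 in R58Q. PSMB6 had 78.1, 69.0 and 72.2 CPM in vector, 90.8, 88.8 and 88.2 in S136X and 104, 102 and 97.6 in R58Q. PSMB7 had 118, 106 and 107 CPM in vector, 127, 128 and 130 in S136X and 156, 146 and 149 in R58Q. In all 3 genes the groups stood in the order vector, S136X, R58Q without overlap. In S136X, PSMB5 rose by 0.33 (SE 0.0794, adjusted p = 0.0345) and PSMB6 by 0.29 (SE 0.0634, adjusted p = 0.0244) on the log2 scale, while PSMB7 was at 0.21 (SE 0.0618, adjusted p = 0.0613, and 0.0151 in the blocked fit). In R58Q the values were 0.55 for PSMB5 (SE 0.0894, adjusted p = 0.005), 0.47 for PSMB6 (SE 0.0647, adjusted p = 0.00249) and 0.44 for PSMB7 (SE 0.0639, adjusted p = 0.00294). Both S136X calls were lost without vector replicate 2 or 3 or S136X replicate 1 or 3, at adjusted p of 0.152 at most, and that of PSMB5 also under upper-quartile scaling (0.0546) and total counts (0.0674). Against S136X, R58Q was at 0.22, 0.18 and 0.22 (adjusted p = 0.328, 0.232 and 0.132). These 3 differences passed only in the blocked fit, at adjusted p of 0.00773, 0.00978 and 0.0013.

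Of the immunoproteasome subunits, PSMB8 and PSMB9 spread widely between the libraries of a group and PSMB10 did not. PSMB8 had 53.5, 62.5 and 69.3 CPM in vector, 57.2, 95.6 and 82.2 in S136X and 71.5, 108 and 90.8 in R58Q. PSMB9 had 14.3, 20.6 and 24.1 CPM in vector, 17.5, 41.7 and 32.3 in S136X and 29.05, 56.7 and 44.7 in R58Q. PSMB10 had 26.7, 24.8 and 27.1 CPM in vector, 28.4, 32.8 and 32.3 in S136X and 35.0, 40.4 and 37.9 in R58Q. For PSMB8 and PSMB9, replicate 1 was the lowest library in all 3 groups, the S136X libraries overlapped the vector libraries, and the R58Q libraries lay above them. PSMB10 did not overlap between any of the groups.

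In R58Q all 3 immunoproteasome genes rose, and in S136X 0 of 3 passed in edgeR, DESeq2 or limma-voom (1 of 3, PSMB10, at an unadjusted p under 0.05 in edgeR, and 1 and 2 of 3 in limma-voom and DESeq2). Without the filter on low counts edgeR passed PSMB8 (0.34, adjusted p = 0.036) and PSMB9 (0.64, adjusted p = 0.00593) in S136X, and without S136X replicate 1 it passed PSMB8 at 0.53 (adjusted p = 0.0186). The R58Q values were 0.54 for PSMB8 (SE 0.15, adjusted p = 0.0357), 1.14 for PSMB9 (SE 0.253, adjusted p = 0.0165, a fold of 2.21) and 0.53 for PSMB10 (SE 0.0778, adjusted p = 0.0033). The S136X values were 0.34 for PSMB8 (SE 0.171, adjusted p = 0.241), 0.63 for PSMB9 (SE 0.292, adjusted p = 0.204) and 0.25 for PSMB10 (SE 0.0837, adjusted p = 0.0917). In the blocked fit all 3 passed in S136X, at 0.32 (adjusted p = 0.0226), 0.59 (adjusted p = 0.00659) and 0.25 (adjusted p = 0.035). Between libraries of the same number PSMB9 was higher in S136X by 0.29, 1.02 and 0.42 and in R58Q by 1.02, 1.46 and 0.89 on the log2 scale, so that all 6 pairs went the same way. R58Q against S136X was at 0.50 for PSMB9 (adjusted p = 0.683), and in the blocked fit at 0.52 (adjusted p = 5.37e-06). The same comparison gave 0.19 for PSMB8 (adjusted p = 0.842, and 0.00643 in the blocked fit) and 0.27 for PSMB10 (adjusted p = 0.312, and 0.00198 in the blocked fit). An effect in R58Q and none called in S136X is therefore not a shown difference in the unblocked comparison.

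The R58Q call of PSMB9 was lost without vector replicate 2 (adjusted p = 0.0614) and without R58Q replicate 3 (adjusted p = 0.0508), and without S136X replicate 1 its S136X value was 0.91 (adjusted p = 0.0173). The R58Q call of PSMB8 was lost without any vector library, without R58Q replicate 2 or 3, under both other scalings and with all 9 libraries in 1 fit, at adjusted p between 0.0512 and 0.104. PSMB8 and PSMB9 overlap on opposite strands over 4.64% of the exon bases of PSMB8. PSMB8-AS1, also on the strand opposite to PSMB8 (141 to 297 counts), shares 20.6% of them.

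**Figure D4:**
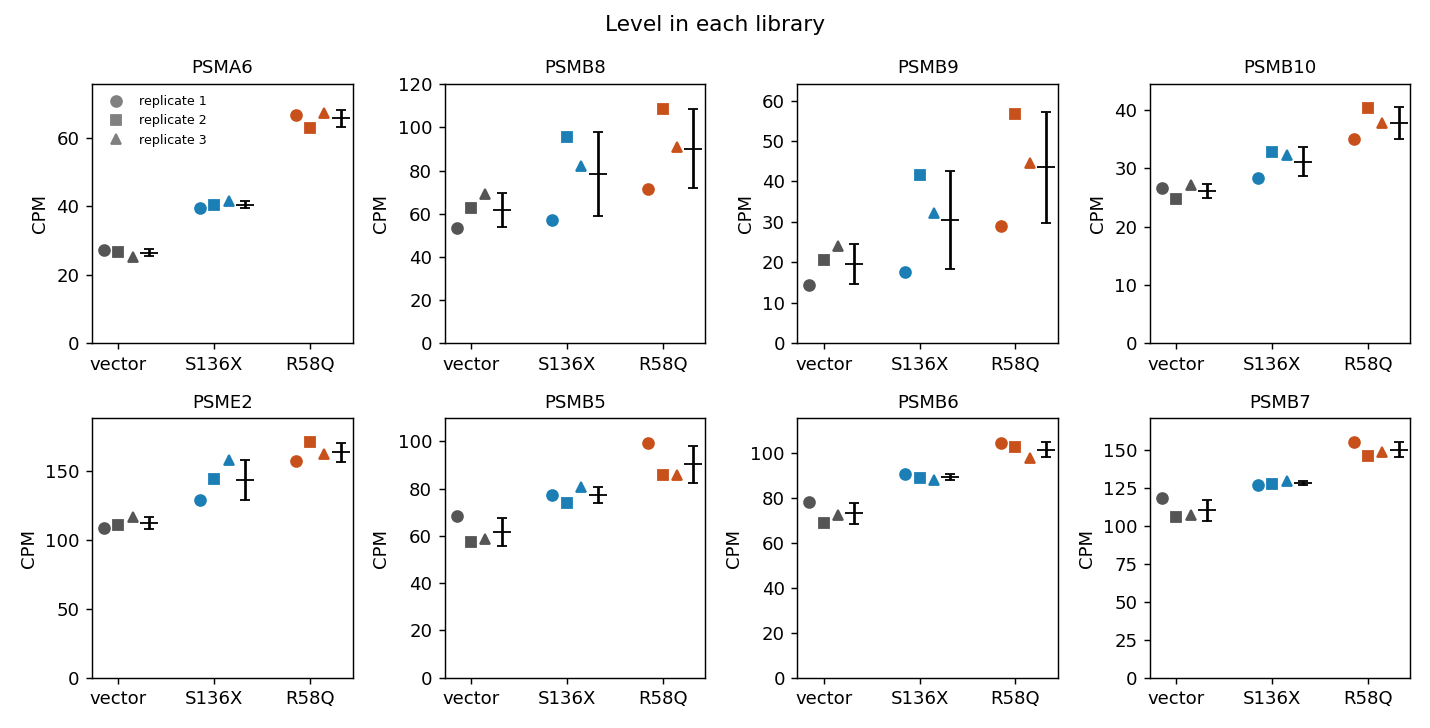
Level in each library (vertical axis, CPM, from 0) of PSMA6, the immunoproteasome genes PSMB8, PSMB9 and PSMB10, the PA28 gene PSME2 and the constitutive catalytic genes PSMB5, PSMB6 and PSMB7, by group, with the mean and SD of 3 libraries. Shapes mark the replicate number. PSMA6 falls into 3 tight groups, whereas PSMB8 and PSMB9 spread widely with replicate 1 (circles) lowest in every group.

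Whether the immunoproteasome genes moved beyond the subunits they replace was read from ratios within each library. The log2 ratio of PSMB9 to PSMB6 was -2.45, -1.75 and -1.58 in vector, -2.38, -1.09 and -1.45 in S136X and -1.85, -0.85 and -1.13 in R58Q. Between libraries of the same number it was higher by 0.07, 0.65 and 0.14 in S136X and by 0.60, 0.89 and 0.46 in R58Q, although the groups themselves overlapped. The ratio of PSMB8 to PSMB5 was between -0.48 and 0.38 in all 9 libraries, and its group means differed from vector by -0.01 in S136X and -0.02 in R58Q. The ratio of PSMB10 to PSMB7 differed by 0.03 in S136X and 0.08 in R58Q. Between libraries of the same number, PSMB8 to PSMB5 differed by -0.08, 0.25 and -0.21 in S136X. In R58Q it differed by -0.12, 0.21 and -0.15. For PSMB10 to PSMB7 these were -0.01, 0.13 and -0.02 in S136X and -0.004, 0.24 and 0.006 in R58Q. By group means alone, PSMB8 and PSMB10 thus moved by about as much as the subunits they replace, while single pairs went either way. PSMB9 moved by more than PSMB6 in each of the 3 R58Q pairs. Over the 3 pairs of genes the mean ratio differed from vector by 0.10 in S136X and 0.24 in R58Q, with SDs of 0.28 in vector, 0.39 in S136X and 0.36 in R58Q. Between libraries of the same number, R58Q was above vector by 0.16, 0.45 and 0.10 and above S136X by 0.17, 0.10 and 0.13, while S136X differed from vector by -0.01, 0.35 and -0.03. Taken without regard to number, the S136X difference turned to -0.06 without vector replicate 1 and to -0.07 without S136X replicate 2. Per kb of annotated exon, PSMB8 was at 0.423 to 0.764 of the level of PSMB5, PSMB9 at 0.0864 to 0.261 of PSMB6, and PSMB10 at 0.215 to 0.267 of PSMB7. These shares depend on the length used. PSMB9 has 3072 annotated exon bases and PSMB6 1448, while their longest coding transcripts have 792 and 871.

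**Figure D5:**
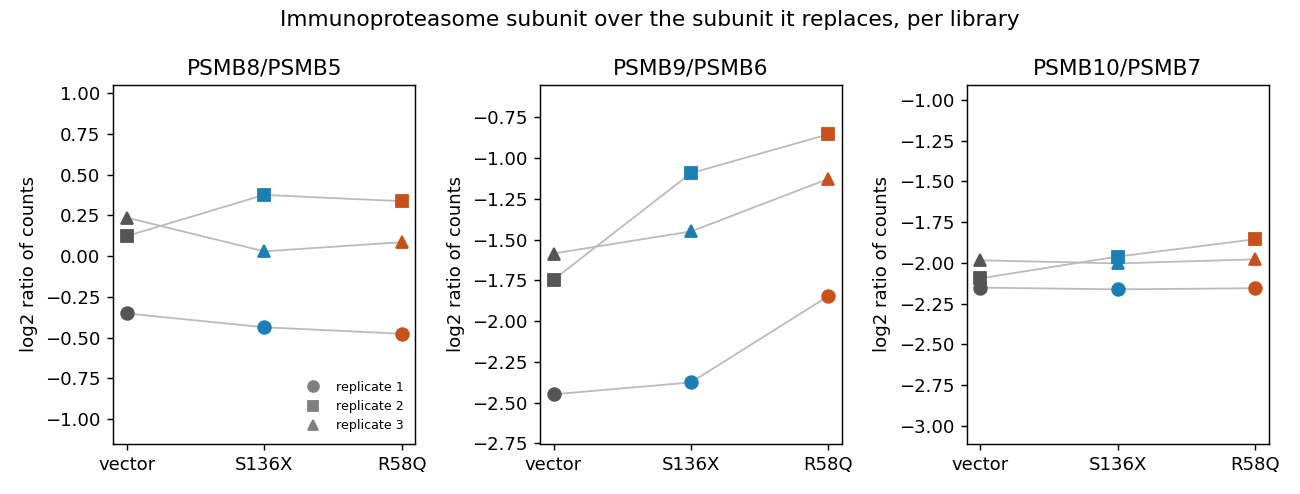
Log2 ratio of counts (vertical axes, each spanning the same range) of each immunoproteasome gene to the constitutive gene it replaces, in every library of the 3 groups, with grey lines joining libraries of the same replicate number. PSMB9/PSMB6 is higher in R58Q than in vector on all 3 lines (0.60, 0.89 and 0.46), while the group means of PSMB8/PSMB5 and PSMB10/PSMB7 differ by less than 0.10.

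The genes around the immunoproteasome and PA28 loci were compared in the same way. PSMB8 (chr6:32840717-32844679) and PSMB9 (chr6:32844136-32859851) lie in the MHC class II region beside TAP1 and TAP2, the peptide transporter of the MHC class I pathway. TAP1 was at 1.15 (adjusted p = 0.0493) in S136X and 2.16 (adjusted p = 0.000481) in R58Q, and TAP2 at 0.78 (adjusted p = 0.0415) and 1.13 (adjusted p = 0.00553). Both transporter genes had larger values than PSMB8, and the 2 other neighbours tested against vector, HLA-DOB and HLA-DMB, did not pass. Around PSMB10 (chr16:67934506-67936864), 1 of 10 tested neighbours within 100 kb rose in S136X, SLC12A4, beside 6.03% of all genes. In R58Q 3 of 10 rose, SLC12A4, LCAT and DDX28, beside 12.3% of all genes. Around PSME2 (chr14:24143362-24147570), 0 of 16 tested neighbours rose in S136X. In R58Q 2 of 16 rose, PSME1 and IPO4, a share near the 12.3% of all genes. IPO4 had only 11 to 39 counts. IRF9, an interferon-pathway transcription factor that lies near PSME1 and PSME2, was at 0.41 (adjusted p = 0.318) and 0.79 (adjusted p = 0.0536).

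PA28 opens the gate of the core without ATP. PSME1 and PSME2, its interferon-inducible alpha and beta subunits, form the cytosolic ring, and PSME3 the nuclear PA28-gamma. PSME2 had 109, 111 and 117 CPM in vector, 129, 145 and 158 in S136X and 157, 171 and 163 in R58Q. Every mutant library was above every vector library, at log2 fold changes of 0.36 (SE 0.0795, adjusted p = 0.0251) and 0.54 (SE 0.0595, adjusted p = 0.000906). PSME1, its partner, had 138, 128 and 132 CPM in vector, 146, 162 and 165 in S136X and 143, 165 and 160 in R58Q. PSME1 was at 0.24 in S136X (SE 0.0666, adjusted p = 0.0517, and 0.0151 in the blocked fit) and 0.23 in R58Q (SE 0.0693, adjusted p = 0.0497). PSME3 had 311, 285 and 290 CPM in vector, 366, 357 and 350 in S136X and 353, 342 and 346 in R58Q. Its mutant libraries were above its vector libraries at 0.28 (SE 0.0605, adjusted p = 0.0239) and 0.23 (SE 0.0593, adjusted p = 0.028). The 3 PA28 genes thus had near values in S136X, and PSME2 was the highest of them in R58Q, where R58Q against S136X was at 0.18 for PSME2 (adjusted p = 0.51, and 0.014 in the blocked fit).

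Most PA28 calls were lost in some fits on 5 libraries. The part of the dropped library and that of the smaller number of libraries were not separated. The R58Q call of PSME1 was lost without any vector library or R58Q replicate 2 or 3, and that of PSME3 without vector replicate 2 or 3 or any R58Q library, and both under both other scalings (adjusted p at most 0.18 and 0.127). The call of PSME1 was also lost in limma-voom (0.0529) and with protein-coding genes only (0.0707). In S136X the call of PSME2 was lost without vector replicate 1 or 2 or S136X replicate 2 or 3 and under total counts (at most 0.117), and that of PSME3 without vector replicate 2 or 3 or S136X replicate 1 or 3 (at most 0.115).

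PSME4 and PSMF1 encode the remaining regulators that bind the ends of the core. PSME4 (PA200), an activator of the nucleus and testis, had 189, 195 and 187 CPM in vector, 197, 200 and 187 in S136X and 195, 198 and 196 in R58Q. These libraries overlapped, at 0.03 (SE 0.0566, adjusted p = 0.773) and 0.04 (SE 0.0521, adjusted p = 0.601). PSMF1 (PI31), which inhibits the core in vitro, had 136.2, 125 and 129 CPM in vector, 148, 149 and 153 in S136X and 136.1, 147 and 146 in R58Q. It was at 0.20 (SE 0.0573, adjusted p = 0.057, and 0.0148 in the blocked fit) and 0.13 (SE 0.0604, adjusted p = 0.152).

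Short stretches before the gene starts are shown for the proteasome genes that hold an ISRE match. The reason is that the immunoproteasome and PA28 genes are known interferon targets. The ISRE letters were found in 5 of 51 proteasome promoters (9.80%), beside 3.02% of all 35114. Some genes, PSMA4 among them, have several of these 51 windows. PSMA7, PSMB1, PSMB6, PSMB7, PSMD4 and PSMG3 have none and were not searched. Each line gives 30 bases in the direction of the gene (RefSeq, GRCh38.p14), with the ISRE match in capitals.
PSMB10 (chr16:67936852-67936881, minus strand): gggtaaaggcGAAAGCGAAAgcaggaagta
PSME2 (chr14:24146619-24146648, minus strand): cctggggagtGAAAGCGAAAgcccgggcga
PSMG4 (chr6:3258904-3258933, plus strand): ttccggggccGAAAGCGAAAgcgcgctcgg
PSMB4 (chr1:151399495-151399524, plus strand): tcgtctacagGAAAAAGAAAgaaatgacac
PSMA4 (chr15:78540155-78540184, plus strand): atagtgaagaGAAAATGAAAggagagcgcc
The matches began 21, 28, 33, 68 and 240 bases before the start, in that order. PSMB10, PSME2 and PSMG4 held the identical match. In S136X and R58Q, PSMB10 was at 0.25 (edgeR adjusted p = 0.0917) and 0.53, and PSME2 at 0.36 and 0.54. PSMG4, a chaperone of core assembly, was at 0.03 (adjusted p = 0.893) and 0.10 (adjusted p = 0.573). The PSMG4 interval of the count table begins further upstream, at chr6:3231403. Whether the match bears on these values was not tested.

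PSMB8 and PSMB9 held no ISRE match in these windows. PSMB8 held a GAS match in the window of 1 of its 2 RefSeq starts, and PSMB9 an ARE match that reads on the opposite strand, both in capitals here.
PSMB8 (chr6:32844093-32844122, minus strand): aactgtccttTTCTCGGAAaaggcaggggg
PSMB9 (chr6:32854034-32854063, plus strand): gggcggggctGCCTCGTCActtgtctcggg
GAS was in 6.57% of all promoters and in 7 proteasome promoters (13.7%), those of PSMA2, PSMA8, PSMB5, PSMB8, PSMC4, PSMD3 and PSME3. Of these only the PSMB8 stretch is shown. ARE was in 10.9% of all and in 13 proteasome promoters (25.5%), PSME1 and PSME2 among them. A match is a description of the letters only.

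The 19S particle moved as a block of small rises. Its 17 genes gave 12 rises in S136X (median 0.29), beside 6.03% of all genes, and 15 in R58Q (median 0.33), beside 12.3%. In each mutant all 3 libraries lay above the vector libraries in 17 of 17 genes. The share of all genes in which they did was 16.0% in S136X and 21.0% in R58Q. Of the 6 ATPases 5 rose in both mutants, with medians of 0.33 and 0.36. The highest by the mean of both values was PSMC4, with 125, 121 and 135 CPM in vector, 159, 161 and 165 in S136X and 188, 189 and 193 in R58Q. The groups of PSMC4 did not overlap, at 0.35 (SE 0.0608, adjusted p = 0.0098) and 0.58 (SE 0.0601, adjusted p = 0.00069). R58Q against S136X was at 0.22 for PSMC4 (adjusted p = 0.129, and 0.000785 in the blocked fit), and its S136X call was lost without vector replicate 2 (adjusted p = 0.0604). PSMC5, the lowest ATPase, had 143, 129 and 135 CPM in vector, 156, 153 and 164 in S136X and 152, 150 and 157 in R58Q. PSMC5 was higher in every mutant library yet did not pass, at 0.22 (SE 0.0614, adjusted p = 0.0576) and 0.17 (SE 0.0589, adjusted p = 0.0716). It passed in both in the blocked fit (adjusted p = 0.0112 and 0.0275).

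Of the 11 other 19S subunits, 7 rose in S136X (median 0.29) and 10 in R58Q (median 0.28). The highest by the mean of both values was PSMD11, a subunit of the lid. It had 206, 194 and 184 CPM in vector, 281, 248 and 245 in S136X and 283, 237 and 260 in R58Q. Its mutant groups lay on each other and above vector, at 0.41 (SE 0.0741, adjusted p = 0.0123) and 0.42 (SE 0.078, adjusted p = 0.00881), and the S136X call was lost without vector replicate 2 (adjusted p = 0.0598). PSMD14, the deubiquitinase of the lid, was at 0.29 (adjusted p = 0.0554, and 0.00219 in the blocked fit) and 0.50 (adjusted p = 0.00353). The lowest by that mean was PSMD2, a scaffold of the base. It had 488, 438 and 438 CPM in vector, 532, 525 and 526 in S136X and 549, 536 and 497 in R58Q. PSMD2 was higher in every mutant library, at 0.21 (SE 0.0651, adjusted p = 0.0722) and 0.21 (SE 0.0714, adjusted p = 0.0694), and passed in the blocked fit (adjusted p = 0.0106 and 0.0116).

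The mutants were also set side by side for the constitutive 20S core and the 19S particle. Of the 14 constitutive 20S genes, 7 rose in S136X (median 0.26) and 14 in R58Q (median 0.41), and in R58Q against S136X 10 of 14 did not overlap, with R58Q higher (median 0.17). Of the 17 genes of the 19S particle 2 were higher without overlap (median 0.03). The share of all genes higher without overlap was 8.76%. In the blocked fit, 8 of the 14 core genes and 2 of the 17 were higher in R58Q than in S136X, beside 7.84% of all genes. The 2 of 17 was near the share of all genes in both counts. Without the block 1 of 14, PSMA6, and 0 of 17 were higher, beside 0.349%. The difference between the classes was not tested.

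Dedicated chaperones assemble the 20S core and the 19S particle. Of the 19S chaperones PSMD5, PSMD9 and PSMD10, 0 of 3 passed in either mutant in edgeR (medians 0.18 and 0.25). At an unadjusted p under 0.05, 2 passed in S136X and 3 in R58Q, where limma-voom called 1 and DESeq2 0. PSMD9 had 6.59, 6.42 and 6.71 CPM in vector, 8.47, 8.34 and 7.37 in S136X and 8.76, 8.48 and 7.68 in R58Q. It was the highest of them, above vector in every mutant library, at 0.29 (SE 0.118, adjusted p = 0.152) and 0.34 (SE 0.113, adjusted p = 0.0686, and 0.0429 in the blocked fit). PSMD10 (gankyrin) had 17.2, 16.1 and 16.3 CPM in vector, 17.1, 18.6 and 17.8 in S136X and 19.6, 20.1 and 19.4 in R58Q. Its S136X libraries overlapped those of vector and its R58Q libraries did not, at 0.11 (SE 0.0847, adjusted p = 0.462) and 0.25 (SE 0.0772, adjusted p = 0.0521, and 0.0281 in the blocked fit).

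PSMG1 to PSMG4 guide the assembly of the core. In S136X 0 of 4 passed in edgeR, DESeq2 or limma-voom (1 of 4 at an unadjusted p under 0.05 in each, median 0.06), and 2 of 4 rose in R58Q (median 0.18). PSMG1 was the highest, with 31.2, 28.9 and 29.7 CPM in vector, 38.9, 34.1 and 33.01 in S136X and 37.7, 34.9 and 37.7 in R58Q. The mutant libraries of PSMG1 lay above vector, at 0.24 (SE 0.0826, adjusted p = 0.105, and 0.0234 in the blocked fit) and 0.29 (SE 0.0674, adjusted p = 0.0187), and the R58Q call was lost without vector replicate 2 or 3 or R58Q replicate 3 (adjusted p at most 0.0831). PSMG3 was the lowest of all tested proteasome genes in S136X, with 43.0, 39.5 and 42.0 CPM in vector, 42.1, 37.8 and 41.2 in S136X and 44.9, 43.1 and 43.2 in R58Q. With TMM scaling it was the only proteasome gene fitted below vector, at -0.04 (SE 0.0722, adjusted p = 0.759) in S136X and 0.07 (SE 0.0619, adjusted p = 0.434) in R58Q.

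Other genes of the pathway, outside the PSM symbols, were mostly fitted higher as well. Of 22 genes for further subunits, shuttle factors, assembly factors and ubiquitin, 7 rose in S136X and 11 in R58Q, beside 6.03% and 12.3% of all genes. All rose by less than 1.5-fold (medians of the 22 genes 0.17 and 0.26). In each mutant 19 were fitted higher, beside 46.9% of all genes in S136X and 46.4% in R58Q. PAAF1 (-0.06 and -0.06), AKIRIN2 (-0.11 and -0.21) and UBQLN2 (-0.06 and -0.04) were fitted below vector and did not pass. Among them ADRM1, the ubiquitin receptor Rpn13, was at 0.32 (adjusted p = 0.0273) and 0.44 (adjusted p = 0.00476), and POMP, the maturation protein that builds the core, at 0.35 (adjusted p = 0.0218) and 0.52 (adjusted p = 0.00265). Of 9 genes that control proteasome transcription, 2 rose in S136X and 5 in R58Q, beside 6.03% and 12.3% of all genes. Among them the interferon-pathway factor IRF1 was called in both at 1.5-fold or more (0.79 and 2.03, adjusted p = 0.0483 and 0.000141). NLRC5, the activator of MHC class I genes, was called in R58Q at 1.19 (adjusted p = 8.46e-05) and in R58Q against S136X at 0.83 (adjusted p = 0.0387). NFE2L1, the factor that raises constitutive proteasome genes when the protease is inhibited, was at 0.25 (adjusted p = 0.123) and 0.04 (adjusted p = 0.742). Of 12 genes for peptide trimming, transport and MHC class I loading, 5 rose in S136X and 8 in R58Q, beside the same shares of all genes. Their medians were 0.43 and 0.64. Among the genes called at 1.5-fold or more were TAP1, TAP2 and HLA-B in both mutants, and TAPBP, B2M and HLA-C in R58Q.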

How the data were processed

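RNA-seq of 9 libraries was analysed, with total RNA prepared with an mRNA-seq kit and sequenced over 2 runs whose reads the authors combined. The authors deposited read counts per gene beside a second block of normalized values, and the counts were used. The submitters' processing notes name cutadapt, STAR, Picard and hg38. The counting program, its strand setting and its annotation are not given in the sources used here. The treatment protocol gives doxycycline as 200 ng/mL and the characteristics as 200 ng/µL.

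The main tool was edgeR 4.0.16 in R 4.3.3. Each pair of groups was fitted alone with filterByExpr (minimum count 10, minimum total 15), TMM factors and a quasi-likelihood test, and p-values were adjusted by Benjamini-Hochberg over all genes tested. CPM were scaled with TMM factors. SE was obtained as the log2 fold change over the square root of the F statistic. A gene passed at an adjusted p under 0.05, and was called at 1.5-fold when it also reached that fold. The alternatives were DESeq2 1.42.0, limma-voom (limma 3.58.1), other scalings and filters, protein-coding genes only, all 9 libraries in 1 fit, a block for the replicate number, each library left out, and an adjusted p under 0.01.

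The labels number replicates 1 to 3 in every group. Deviations from group means correlated in all 9 pairs of libraries with the same number (0.143 to 0.626, median 0.425), so the numbers were taken as pairing the libraries. Between different numbers the correlation ranged from -0.459 to 0.169 (median -0.251), so both ranges overlapped. Vector replicate 2 was at only 0.143 and 0.163 with replicate 2 of S136X and of R58Q. The negative median is not separate evidence, because deviations from a group mean cancel within the group. Counts of replicate libraries did not match within sampling noise (chi-square over its degrees of freedom 7.82 to 24.3).

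Classes and lists were written by hand, and the members and lists were chosen with earlier results of these data known. Full values are given for PSMA6, the immunoproteasome genes and those they replace, PSME1 to PSME4, genes called at 1.5-fold and the highest and lowest of each class by the mean of both log2 fold changes. PSMA5, PSMD14, PSMA1, PSMA2, PSMC1 and PSMG4, and ADRM1, POMP, PAAF1, AKIRIN2, UBQLN2 and NFE2L1 among other genes, were named after their values were seen. Some genes that this rule names are not reported here. Shared sequence was counted in 31-base words of GENCODE release 29 transcripts, and promoters are those of RefSeq. Tested on simulated S136X and vector counts in which 200 of 15253 genes were given a 1.5-fold change, edgeR recovered 88 (44.0%) and also called 11 others. On the same counts DESeq2 recovered 112 and called 36 others, and limma-voom recovered 87 and called 7 others.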

Additional observations from a re-analysis of the deposited data

Results flagged for a closer look

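The response of 1 proteasome gene differed between the mutants in the direct test without the replicate block. With the block 15 genes were higher in R58Q. PSMA6 was 0.69 higher on the log2 scale in R58Q than in S136X (SE 0.0599, adjusted p = 0.0051, edgeR), and R58Q was higher in 3 of 3 pairs of the same replicate number (0.76, 0.64 and 0.70). Without S136X replicate 3 the value was 0.72 and the adjusted p 0.0514. The date in the deposited column names changes with R58Q, and the effect of date cannot be told apart from that of the mutant. No group had more than 3 libraries, so no library was tested as standing apart from its group.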

How the results depend on the processing

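Proteasome genes passing in S136X against vector numbered 21, then 38 in the fit with the replicate block, 4 at an adjusted p under 0.01 and 3 to 27 when a library was left out. At 1.5-fold the count of 1 became 0 under upper-quartile scaling and total counts, 2 without the filter or with the replicate block, and 1 to 2 with a library left out. In R58Q the 37 genes became 20 at an adjusted p under 0.01 and 20 to 36 with a library left out (42 with the block), and the 2 genes at 1.5-fold became 1 and 1 to 6. In R58Q against S136X the 1 gene became 2 with DESeq2 (beside 214 of 15195 genes), 15 with the replicate block and 0 to 1 with a library left out, also at 1.5-fold. Without a filter 48 proteasome genes were tested, with 25 higher in S136X and 38 in R58Q. Over all genes 1176 of 29897 and 2127 of 30171 were then higher. The counts over all genes at an adjusted p under 0.01 and with a library left out are not given here.

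The mean ratio of immunoproteasome to constitutive genes, 0.10 in S136X, 0.24 in R58Q and 0.13 between the mutants, ranged from -0.066 to 0.32, 0.08 to 0.44 and -0.0796 to 0.33 when a library was left out. It was below 0 in S136X when vector replicate 1 (-0.0555) or S136X replicate 2 (-0.066) was dropped, and in R58Q against S136X without S136X replicate 1 (-0.0796) and without R58Q replicate 2 (-0.0188). The replicate block leaves the mean ratio as it is. In the counts of genes passing, no gene fell under any alternative. Of the genes given with full values, the replicate block changed no call other than those stated beside them.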
